A study of Mus musculus with 14 samples.

Results

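The Nat8 family of the mouse comprises 8 genes, Nat8 and Nat8f1 to Nat8f7, and 6 of them were measured on the arrays, out of 19751 gene symbols with a probe. The family was chosen by the male over female ratio of Nat8f5 at 8 wk, one of the largest on the arrays, so that the 8 wk ratios below are a description and carry no test. Members were found through the RefSeq accessions of the probes, and each measured member had 1 probe. Nat8f6 and Nat8f7 matched no probe and were not analysed here. Liver RNA came from male (M) and female (F) CD1 mice, an outbred strain, killed at an age of 3, 4 or 8 wk, and the labels name no treatment or altered allele for any group. Each of the 6 groups (M3, F3, M4, F4, M8 and F8) was represented by 2 RNA pools, from 5 mice each at 3 wk and from 6 mice each at 4 and 8 wk, so the spread between mice within a pool was not measured. The pools were hybridized in 7 comparisons on 14 two-color arrays, 2 for each comparison with the dyes exchanged. The sexes were compared at each age (M3/F3, M4/F4 and M8/F8), and 8 wk was compared with each younger age in males (M8/M3 and M8/M4) and in females (F8/F3 and F8/F4).

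Nat8 enzymes are membrane proteins of the endoplasmic reticulum that transfer the acetyl group of acetyl-CoA to an amino group. Human NAT8 acetylates cysteine S-conjugates, which is the last step by which glutathione conjugates of foreign compounds become mercapturic acids, and acetylation of lysines on proteins in the lumen of the endoplasmic reticulum has also been assigned to the family. Kidney and liver are its best known sites, and which of these reactions each mouse member carries out is not settled by the measurements described here. In rodent liver, sex differences in gene expression largely depend on the pattern of growth hormone secretion by the pituitary, which diverges between males and females at puberty, and the transcription factors STAT5b, HNF4alpha and HNF1alpha are associated with such genes.

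The members are neighbours on chromosome 6, all on the minus strand, and no other named protein-coding gene lies wholly between them in the RefSeq table, where Alms1 overlaps Nat8f7 and Tprkb overlaps Nat8f1. Promoter windows of RefSeq (GRCm38.p6) were found for all 8 members, 10 windows in all because Nat8 and Nat8f4 each have 2 start sites. Each window covers 300 bases, 250 of them before the start. The 250 bases before the start are shown for Nat8f5 and Nat8, the members whose ratios rose in males, and for Nat8f2, which rose in both sexes, a choice made after the values were seen. For Nat8 the start site nearer to Nat8f5 is shown. Capitals mark the 6 letters GTTAAT, used here as the HNF1 motif.

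Nat8f5, chr6:85820973-85821222, minus strand: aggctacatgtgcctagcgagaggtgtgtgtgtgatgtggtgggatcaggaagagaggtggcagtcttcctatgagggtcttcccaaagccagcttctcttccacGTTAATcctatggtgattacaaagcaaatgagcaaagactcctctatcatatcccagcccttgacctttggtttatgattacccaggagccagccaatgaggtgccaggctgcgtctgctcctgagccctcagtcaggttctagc

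Nat8, chr6:85832280-85832529, minus strand: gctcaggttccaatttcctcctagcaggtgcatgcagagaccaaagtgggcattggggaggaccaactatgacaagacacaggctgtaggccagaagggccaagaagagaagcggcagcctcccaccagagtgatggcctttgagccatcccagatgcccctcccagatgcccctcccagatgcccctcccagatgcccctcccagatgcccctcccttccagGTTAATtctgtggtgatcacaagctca

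Nat8f2, chr6:85869138-85869387, minus strand: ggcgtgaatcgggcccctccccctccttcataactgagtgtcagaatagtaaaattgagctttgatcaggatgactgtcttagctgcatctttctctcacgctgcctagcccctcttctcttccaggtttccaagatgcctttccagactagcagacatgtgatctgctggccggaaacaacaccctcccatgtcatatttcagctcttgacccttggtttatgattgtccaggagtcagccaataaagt

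GTTAAT was found in 2 of the 10 windows, those shown for Nat8f5 and Nat8, and in 7.1% of the 32851 promoter windows of the table. The match begins 145 bases before the start in Nat8f5 and 27 bases before it in Nat8. The HNF4 motif CAAAGTCCA, present in 0.475% of all windows, was found once in the family, on the opposite strand of the Nat8 window and past its start. The STAT5 motif TTCNNNGAA, present in 8.3% of all windows, was found in 0 of the 10. The TATA box TATAAA, present in 13.6% of all windows, was found in 3, those of Nat8f6, Nat8f7 and 1 of the windows of Nat8f4, where matches on both strands overlap. All motifs were searched on both strands, GTTAAT overlapped no other match, and a match describes letters only. The best local alignment of the Nat8f5 and Nat8f2 windows held 53 identical letters over 65 positions (81.5%). The second Nat8 window shared 154 of 156 positions with the Nat8f3 window (98.7%).

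Nat8f5 had the largest sex ratio of the family. Its log2 M8/F8 ratio was 4.32 on the first array and 4.96 on the second, a mean of 4.64 ± 0.46 (SD, n = 2) or 25.0-fold, which placed it at rank 6 of 13526 genes ordered from the highest male ratio. At 4 wk the ratio was already above 1 on both arrays. The log2 M4/F4 values were 2.32 and 2.71, a mean of 2.51 ± 0.28 (SD, n = 2) or 5.71-fold higher in males, and the difference passed the test (adjusted p = 0.00351, limma). At 3 wk the 2 arrays gave 0.25 and 1.18, and their mean of 0.71 ± 0.65 did not pass (adjusted p = 0.226). The order of the 3 sex ratios was therefore M8/F8, M4/F4 and M3/F3, with no overlap between the arrays of different ages.

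**Figure D1:**
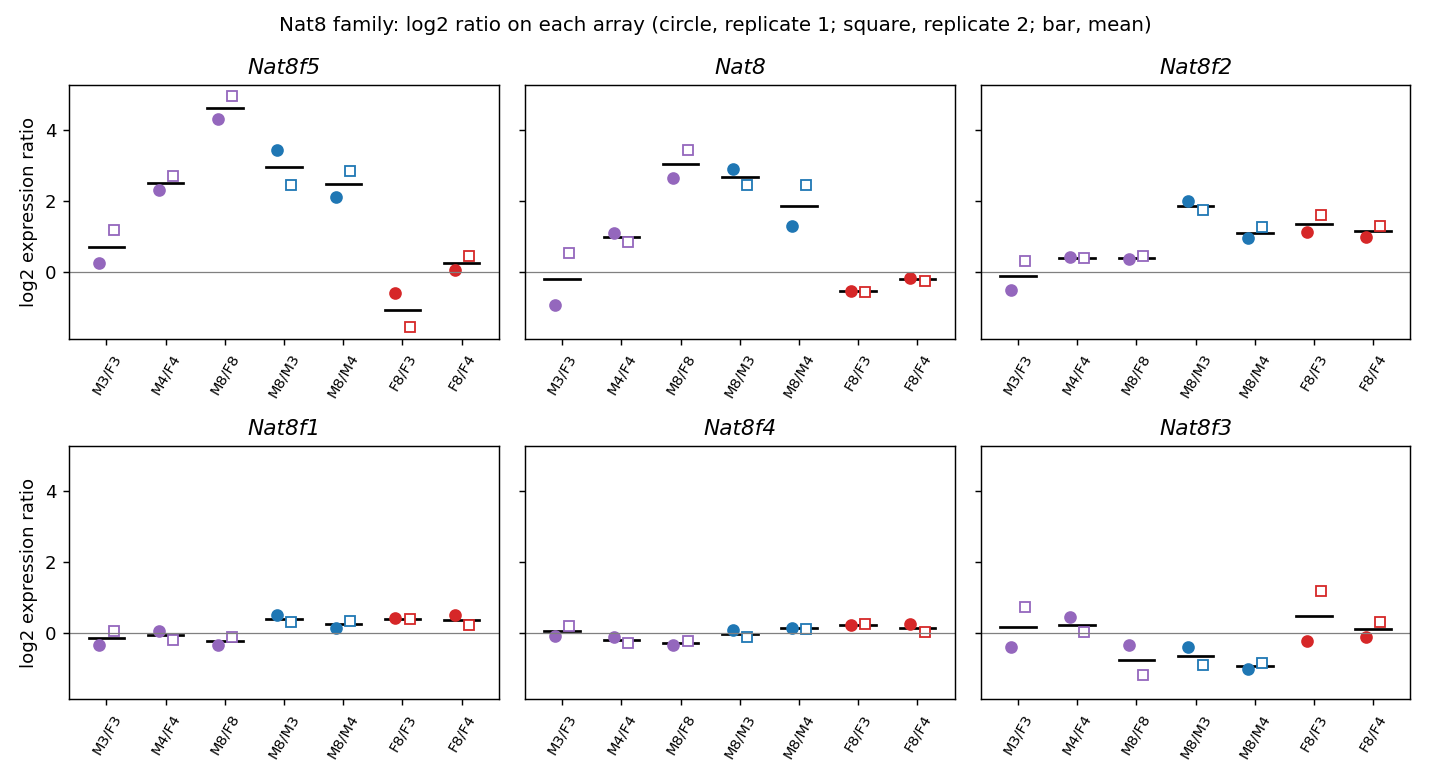
Log2 expression ratio (vertical axis) of the 6 measured members in the 7 comparisons (horizontal axis), with the array of replicate 1 as a filled circle, that of replicate 2 as an open square and their mean as a bar. Nat8f5 reaches 4.32 and 4.96 and Nat8 2.65 and 3.45 in M8/F8, while Nat8f2 lies above 0.9 in all 4 age comparisons.

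Nat8 followed at a distance. Its log2 M8/F8 values were 2.65 and 3.45, a mean of 3.05 ± 0.56 (8.29-fold, rank 25). The log2 M4/F4 values of 1.11 and 0.85 were both above 0, and their mean of 0.98 ± 0.19 did not pass the test (adjusted p = 0.164). The M3/F3 arrays gave values of opposite sign, -0.92 and 0.55 (mean -0.18, adjusted p = 0.952). Whether Nat8f5 and Nat8 differ from each other at 4 wk was not tested, since each was measured by a different probe.

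The other 4 members had smaller 8 wk sex ratios, which are given without a test. Nat8f2 gave log2 M8/F8 values of 0.36 and 0.45, and Nat8f4 gave -0.33 and -0.23. Nat8f1 gave -0.33 and -0.10. Nat8f3 was lower in males on both arrays, but by unequal amounts, -0.33 and -1.20 (mean -0.77 ± 0.61, SD, n = 2, or 1.70-fold lower). In M4/F4 the means were 0.41 ± 0.03 for Nat8f2 (adjusted p = 0.277), -0.07 for Nat8f1 (adjusted p = 0.861), -0.19 for Nat8f4 (adjusted p = 0.167) and 0.23 for Nat8f3 (adjusted p = 0.884). The range over the 6 members at 8 wk thus ran from -0.77 for Nat8f3 to 4.64 for Nat8f5 on the log2 scale.

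A gene was called where its adjusted p was below 0.05, its ratio was above 1.5 or below its inverse, and a group was well above background on both arrays. All 6 members were well above background in all 28 channels, so none was lost to dim signal. In M3/F3, 0 of the 6 members were called, where 0.464% of all probes tested were, and 0 had an unadjusted p below 0.05 in limma or were called by the error-weighted average. In M4/F4, 1 of 6 was called (Nat8f5), against 1.44% of probes. In M8/F8, 2 of 6 met the rule (Nat8f5 and Nat8) beside 6.31% of probes, and nothing is read from that count because the family was picked on this comparison. In M3/F3 the arrays differed in sign for 5 of the 6 members, and replicate 2 was the higher array for all 6. The M3 and F3 pools of the 2 replicates are different animals and their dyes were exchanged. Each F3 pool was read in both dyes, once in M3/F3 and once in F8/F3, and for Nat8 the log2 normalized signal was 9.87 and 10.19 in pool 1 and 9.29 and 9.33 in pool 2. For Nat8f2 it was 12.07 and 12.21 in pool 1 and 11.35 and 11.43 in pool 2. The F3 pools thus did not overlap in these 2 genes, whichever dye they carried, nor in Nat8f3 and Nat8f4. They overlapped for Nat8f5 (8.53 to 8.57 in pool 1, 8.46 to 8.54 in pool 2) and Nat8f1 (13.96 to 14.24 and 13.87 to 13.98). For Nat8f5 the M3 pools gave 8.89 and 9.74, but each M3 pool was read in a single dye. In M4/F4, with the dyes laid out in the same way, replicate 2 was the higher array for 1 of the 6 members. The parts of pool and dye in the M3/F3 pattern were not tested.

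The age comparisons asked how each member changed from the pre-pubertal ages to 8 wk within a sex. They share the 8 wk pools with M8/F8, and Nat8f5 was chosen on those pools, so its age ratios are given with their SE and no p. In males Nat8f5 was higher at 8 wk. The log2 M8/M3 values were 3.45 and 2.47 (mean 2.96, SE 0.33, 7.79-fold) and the log2 M8/M4 values were 2.11 and 2.86 (mean 2.49, SE 0.33, 5.60-fold). In females it was lower at 8 wk than at 3 wk on both arrays, with log2 F8/F3 values of -0.60 and -1.55 (mean -1.07). Females at 8 and 4 wk lay close together, with log2 F8/F4 values of 0.07 and 0.46 (mean 0.26). The difference between the male and the female change was 4.03 (SE 0.46) from 3 to 8 wk and 2.22 (SE 0.46) from 4 to 8 wk on the log2 scale.

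Nat8 rose in males and did not change detectably in females. Log2 M8/M3 was 2.92 and 2.45 on the 2 arrays (mean 2.69, 6.44-fold, adjusted p = 0.0054), and this call was lost without replicate 1 of M8/M3 (2.53, adjusted p = 0.0567). Log2 M8/M4 was 1.30 and 2.47 (mean 1.88, 3.69-fold, adjusted p = 0.0209), and this call was lost without replicate 2 of M8/M4 (1.08, adjusted p = 0.194). Log2 F8/F3 was -0.52 and -0.56 (adjusted p = 0.483) and log2 F8/F4 was -0.15 and -0.26 (adjusted p = 0.926), so both female arrays of each pair fell slightly below 0 without passing the test. The interaction of sex and age was 3.23 (SE 0.55) from 3 to 8 wk (adjusted p = 0.0269) and 2.09 (SE 0.55) from 4 to 8 wk (adjusted p = 0.159). The call from 3 to 8 wk was lost without any one of 8 arrays, both arrays of M8/M3, F8/F3, M4/F4 and F8/F4 (3.07 to 3.38, adjusted p up to 0.139). M8/M3 and F8/F3 were scanned on different days, whereas M8/F8 and M3/F3 were scanned on the same day, and M8/F8 minus M3/F3 gave 3.57 and 2.90 in the pools of replicates 1 and 2. That difference came from the same pools and from the comparison that chose the family, so it is a description, and the part of the scan day was not tested. Across all probes, 3.22% and 1.34% were called in these 2 interactions.

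Nat8f2 rose with age in both sexes. Log2 M8/M3 was 2.00 and 1.76 (mean 1.88, 3.68-fold, adjusted p = 0.00192) and log2 F8/F3 was 1.13 and 1.62 (mean 1.37, 2.59-fold, adjusted p = 0.00636). From 4 to 8 wk the arrays gave 0.96 and 1.29 in males (mean 1.12, adjusted p = 0.0139) and 1.00 and 1.30 in females (mean 1.15, adjusted p = 0.0127). The difference between the male and the female change did not pass the test. It was 0.51 from 3 to 8 wk (SE 0.30, adjusted p = 0.435) and -0.03 from 4 to 8 wk (SE 0.30, adjusted p = 1). With a single array left out, M8/M3 stayed called in every case, and the calls of the other 3 comparisons were lost without at least 1 array of their own: M8/M4 without replicate 1 (1.32, adjusted p = 0.0522) or 2 (0.93, adjusted p = 0.139), F8/F3 without replicate 2 (1.09, adjusted p = 0.0744), and F8/F4 without replicate 1 (1.33, adjusted p = 0.0532) or 2 (0.97, adjusted p = 0.125).

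**Figure D2:**
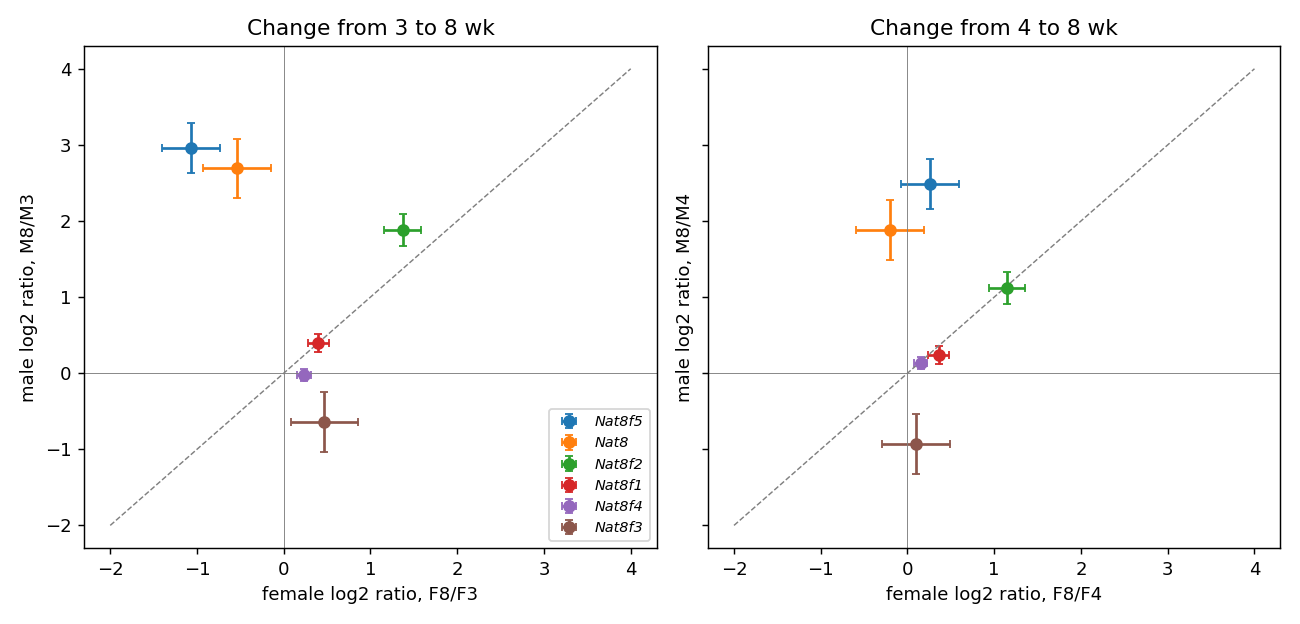
Male log2 ratio of 8 wk over the younger age (vertical axis) against the female ratio (horizontal axis) for the 6 members, from 3 to 8 wk on the left and from 4 to 8 wk on the right, with SE bars from the fit and a dashed line where both sexes change equally. Nat8f5 and Nat8 lie above the line, Nat8f2 lies near it at 1.88 and 1.37 on the left, and Nat8f3 lies below it.

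The remaining 3 members were called in no comparison. Nat8f1 gave log2 M8/M3 of 0.51 and 0.30 (mean 0.40, adjusted p = 0.069) and log2 F8/F3 of 0.42 and 0.39 (mean 0.40, adjusted p = 0.0686). Nat8f4 had the smallest SE of the family, 0.08, and its 7 mean ratios lay between -0.28 and 0.23. Nat8f3 gave log2 M8/M4 of -1.01 and -0.85 (mean -0.93, SE 0.39, adjusted p = 0.187) and log2 F8/F3 of -0.24 and 1.18.

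In M8/M3, 3 of the 6 members were called (Nat8f5, Nat8 and Nat8f2), where 16.8% of probes were, and in M8/M4 the same 3 genes were called, where 10.1% were. In F8/F3 and F8/F4 only Nat8f2 was called among the 6, against 10.8% and 5.41% of probes. The call of Nat8f5 in these counts is a description, as above.

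The signal of each pool was also compared between groups. For Nat8f5 the log2 normalized signal was 12.40 and 12.23 in the M8 pools, 10.30 and 9.33 in M4, 8.89 and 9.74 in M3, 8.55 and 8.50 in F3, 7.99 and 7.06 in F8, and 7.95 and 6.57 in F4. M8 stood apart from all other pools, whereas the M4 and M3 pools overlapped, as did those of F8 and F4. For Nat8 the M8 pools gave 12.24 and 12.46, and the next pool, of M4, gave 10.90. The other 9 Nat8 pools lay between 8.85 and 10.03, with no separation of the sexes at 3 wk. Nat8f2 was highest in M8 (13.72 and 13.53), then in F8 (13.32 and 13.07), and lower in every 3 and 4 wk pool (11.39 to 12.74). Nat8f1 varied little, from 13.91 to 14.48 over the 12 pools, with F8 and M8 highest and the 3 and 4 wk groups within the spread of their pools. Nat8f4 lay between 8.98 and 9.44, with the F8 pools (9.44 and 9.33) highest and the other groups overlapping with their neighbours in the order. Nat8f3 gave its lowest signals in the M8 pools (6.85 and 6.40), below the other 10 pools (7.02 to 8.05), whose groups overlapped. These signals are comparable between groups for one probe and not between probes.

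**Figure D3:**
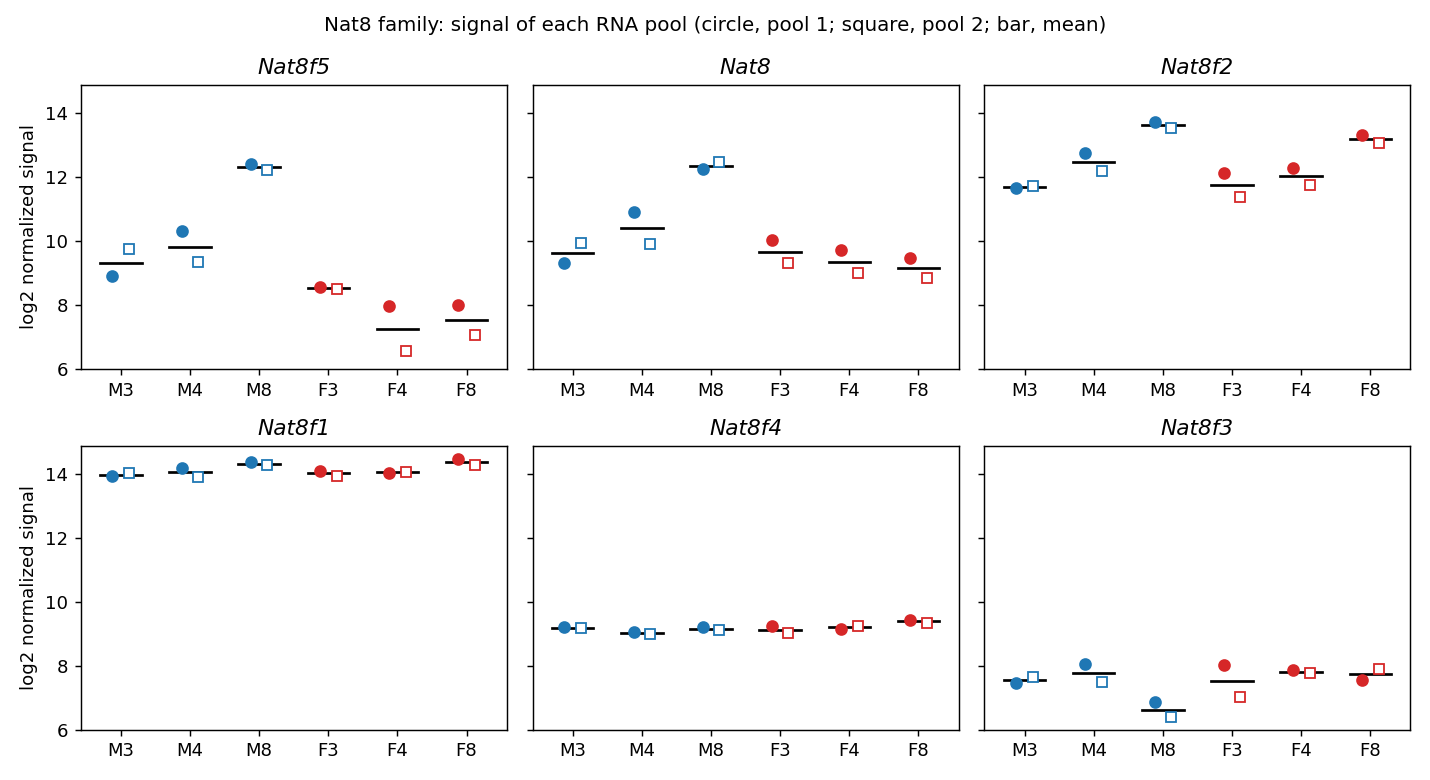
Log2 normalized signal (vertical axis) of each of the 12 RNA pools by group (horizontal axis, M3 to F8) for the 6 members, males in blue and females in red, with pool 1 as a filled circle, pool 2 as an open square and the mean as a bar. The M8 pools of Nat8f5 (12.40 and 12.23) and Nat8 (12.24 and 12.46) lie above all other pools of the same probe.

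Because the pools were reused, each ratio could be compared with the one predicted from the others. The difference of the male and female age ratios equals the difference of the 8 wk and younger sex ratios if the arrays are additive. Over the 24 such loops of the 6 members the 2 routes differed by a median of 0.08 and at most 0.23 on the log2 scale. The match of replicate numbers to pools was itself taken partly from these loops, so their closure is no separate check of it. For Nat8f5 the routes from 3 to 8 wk gave 4.05 and 4.07 in the pools of replicate 1, and 4.02 and 3.79 in those of replicate 2. Disagreement between replicates was larger than disagreement between routes through the same pools for the members with wide spreads, such as Nat8 in M3/F3.

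The genes most like each called member over the 14 arrays were taken by Pearson's r among 3534 called named genes. The arrays share pools, so r is a description and carries no p. For Nat8f5 they were Abcg2, an efflux transporter (r = 0.977), Lama3, a laminin chain (r = 0.970), Cib3 (r = 0.970), Cyp2d9, a male-biased cytochrome P450 (r = 0.962) and Scara5, a ferritin receptor (r = 0.961). For Nat8 they were Cyp2d9 (r = 0.984), Abcb10, a mitochondrial transporter (r = 0.978) and Ttc39c (r = 0.971). For Nat8f2 they were Klf9, a transcription factor induced by hormones (r = 0.970), Lrrc51 (r = 0.968) and Dhdh (r = 0.968). By Spearman's rho, Cyp2d9 ranked first for Nat8f5 and Abcb10 for Nat8, whereas for Nat8f2 the 3 named genes ranked lower, Klf9 at 43.5, Lrrc51 at 26 and Dhdh at 5. Between members, r was 0.925 for Nat8 with Nat8f5 and 0.85 for Nat8f1 with Nat8f2, against 0.219 for Nat8 with Nat8f2. Whether the probes of these related genes share signal, with each other or with Nat8f6 and Nat8f7, was not tested.

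The other steps of mercapturic acid formation were followed through 44 genes for glutathione transferases, the enzymes that trim glutathione conjugates, glutathione synthesis and conjugate export, of which 43 were measured. In M8/F8, 5 were called higher and 3 lower in males, with a median of -0.08 over the 39 bright members, against 0.01 for all probes tested, of which 6.31% were called in either direction. In M4/F4, 3 were higher and 1 lower, beside 1.44% of all probes. In M3/F3, 0 were called in limma, beside 0.464% of all probes, and 0 by the error-weighted average. There 6 had an unadjusted p below 0.05 in limma, and the share of all probes below it was not counted. In M8/M3, 8 rose and 2 fell, beside 16.8% of all probes called, and in F8/F3, 7 rose and 2 fell, beside 10.8%. Over all 7 comparisons, 18 of the 43 were called at least once, where 17.9% of the 19751 measured genes were, taken with 1 probe each.

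Gstp2 and Gstp1, glutathione transferases of the pi class, showed the largest changes on the list. Gstp2 was 15.8-fold higher in males at 8 wk (log2 4.43 and 3.52, adjusted p = 0.000266), and Gstp1 was 10.0-fold higher (log2 3.86 and 2.78, adjusted p = 0.000485). The 2 genes are near-identical, so their probes may share signal. Gstp2 was also higher in males at 4 wk (log2 1.43 and 0.68, adjusted p = 0.0326). Gstt3, a theta class transferase, was lower in males, with log2 M8/F8 of -1.99 and -1.48 (adjusted p = 0.00309) and log2 M4/F4 of -1.07 and -1.05 (adjusted p = 0.0203). Abcc3, an exporter of conjugates, rose in both sexes, with log2 M8/M3 of 1.66 and 1.78 (adjusted p = 0.00013) and log2 F8/F3 of 1.16 and 1.28 (adjusted p = 0.000348). Gstm6 rose in males (log2 M8/M3 1.5 and 1.27, adjusted p = 0.000387) and in females (log2 F8/F3 0.58 and 0.80, adjusted p = 0.00482). Ggct, which degrades gamma-glutamyl peptides, fell in males (log2 M8/M3 -1.06 and -1.18, adjusted p = 0.00171) and in females (log2 F8/F3 -0.77 and -0.59, adjusted p = 0.0117). Dpep1, the dipeptidase that cleaves cysteinylglycine conjugates, fell in M8/M4 (-1.34 and -0.54, adjusted p = 0.0275), and Mgst2 fell in F8/F3 (-0.63 and -1.23, adjusted p = 0.0314). In M8/M3, Dpep1 had values of the other sign, 0.64 and 0.21, and was not called (adjusted p = 0.264, limma).

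Of the 17 measured genes for other small-molecule N-acyltransferases, 6 were called at least once, beside the same 17.9% of all measured genes. Keg1, a relative of the glycine N-acyltransferases, was higher in males at 4 wk (log2 1.96 and 1.44, adjusted p = 0.0146) and at 8 wk (1.39 and 2.05, adjusted p = 0.0138). Aanat, which acetylates serotonin, was higher in males at 8 wk (0.86 and 1.00, adjusted p = 0.000121). Nat1, an arylamine acetyltransferase, rose with age in males (log2 M8/M3 1.00 and 0.71, adjusted p = 0.00679) and in females (log2 F8/F3 1.00 and 1.24, adjusted p = 0.00238). Baat, which conjugates bile acids, rose in M8/M3 (0.68 and 0.54, adjusted p = 0.00461), whereas Nat14 (-0.58 and -0.78, adjusted p = 0.00205) and Nat3 (-0.80 and -0.46, adjusted p = 0.0298) fell. Of 5 genes that supply acetyl-CoA to the endoplasmic reticulum or serve lysine acetylation there, 1 was called at least once, beside 17.9% of all measured genes. It was Acly, which makes cytosolic acetyl-CoA, called in M3/F3 (0.87 and 0.44, adjusted p = 0.0357) and M8/M3 (-1.08 and -0.94, adjusted p = 0.00702).

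Of the 20 measured genes nearest to the family on chromosome 6, 2 were called at least once, beside 17.9% of all measured genes. Tgfa, a growth factor, was higher in males at 8 wk (log2 0.71 and 0.62, adjusted p = 0.00357), and Rab11fip5 rose in M8/M3 (0.40 and 1.05, adjusted p = 0.0319). The median log2 M8/F8 ratio of the 14 bright neighbours was 0.03, against 0.01 for all probes tested.

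**Figure D4:**
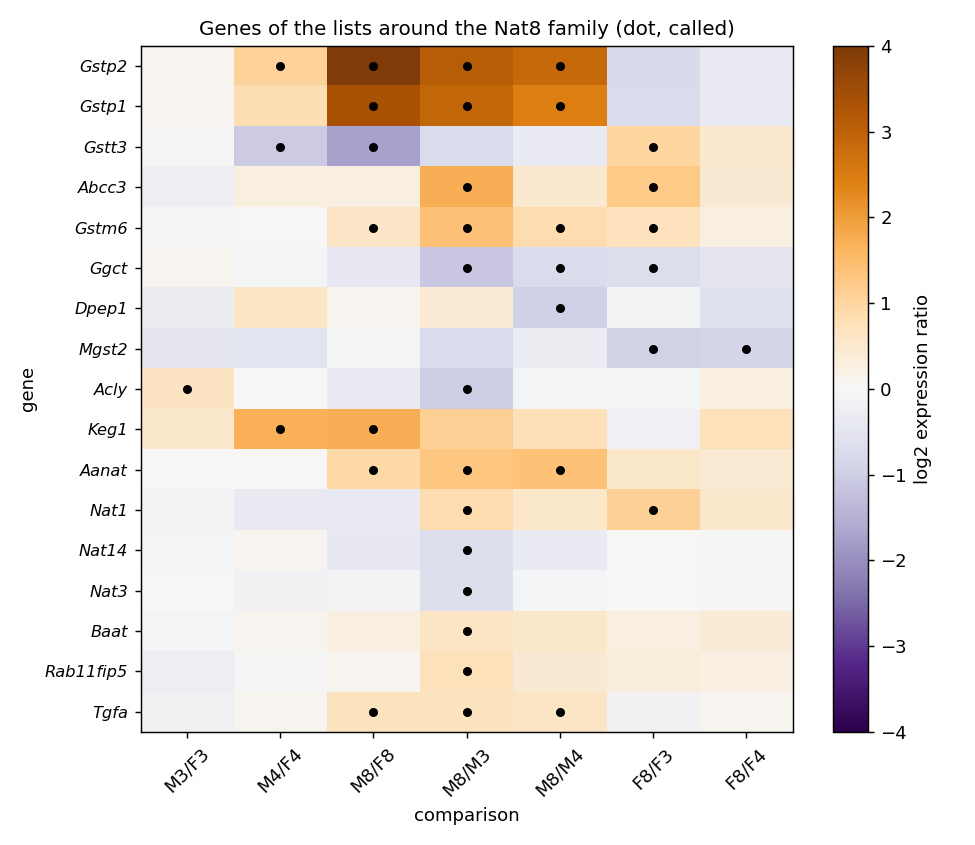
Fitted log2 ratio (color scale, -4 to 4) of the named genes of the 4 lists (rows) in the 7 comparisons (columns), with a dot where the gene was called. Gstp2 and Gstp1 are the only genes with a ratio over 2, reached in M8/F8, M8/M3 and M8/M4, and Gstt3 reaches -1.74 in M8/F8.

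The labels and the tissue were checked on the same arrays. Xist was lower and Ddx3y higher in males on all 6 arrays that compared the sexes. In one channel, 55.2% to 77.2% of spots were well above background, and 0 were saturated. All 5 hepatocyte markers were above background, with summed signals of 422000 to 450000 in M8 and 453000 to 543000 in the other pools, and Alb, the serum albumin gene, was called lower in M8/M3 (log2 ratio -0.71, adjusted p = 0.00553) and M8/M4 (log2 ratio -0.68, adjusted p = 0.0068). The 5 did not move together. Tat, a tyrosine aminotransferase, had log2 ratios of 0.33 in M8/M3 (adjusted p = 0.00197) and 0.19 in M8/M4 (adjusted p = 0.0168), both too small to be called, and was called higher in F8/F4 (0.65, adjusted p = 0.000207), while the median over the 5 was -0.23 in M8/M3 and 0.02 in M8/M4. Of 5 kidney markers, 2 were below background in every channel. The summed signal of the 5 was 90.2 to 127 in the 8 wk pools and 45.4 to 83.5 in the younger pools, and Kap, an androgen-regulated kidney gene, was called higher at 8 wk in M8/M3 (2.45-fold, adjusted p = 0.0027), F8/F3 (1.66-fold, adjusted p = 0.0239) and F8/F4 (1.59-fold, adjusted p = 0.0332). The summed signal of 5 erythroid markers was 9740 to 11300 in M8, against 1940 to 5750 in the other pools. Alas2, the erythroid heme synthesis enzyme, was called higher in M4/F4 (1.72-fold, adjusted p = 0.0199), M8/F8 (3.70-fold, adjusted p = 0.000725), M8/M3 (2.59-fold, adjusted p = 0.00229) and M8/M4 (1.98-fold, adjusted p = 0.00823), and it was not called in F8/F3 or F8/F4. Its change from 3 to 8 wk differed between the sexes by 1.64 on the log2 scale (adjusted p = 0.0134). It was the only erythroid marker called in M8/F8, and 3 of the other 4 fell in M8/M3. The summed signal of 5 Kupffer cell markers was 15500 to 20000 in M8 and 23800 to 33800 in the other pools. The stellate cell markers summed to 31000 to 35500 in M8, 37700 to 37800 in F8 and 38500 to 51900 in the younger pools, and Col1a1, a collagen gene, was called lower at 8 wk in both sexes (log2 ratio -2.25 in M8/M3 and -1.93 in F8/F3). Only 1 of these 4 markers was called, with a median over them of -0.36 in M8/M3 and -0.22 in F8/F3. In F8/F3, Lrat lay above 0 (0.11) and Des (-0.22) and Dcn (-0.23) below. The sinusoidal endothelial markers summed to 26200 to 27400 in M8 and 28800 to 34200 in the other pools, and Lyve1, a hyaluronan receptor, was called lower in M8/M3 (log2 ratio -1.20), M8/M4 (log2 ratio -0.85) and F8/F3 (log2 ratio -0.94). Only 1 of these 4 markers was called, with a median over them of -0.17 in M8/M3 and -0.05 in F8/F3. In F8/F3, Fcgr2b (0.15) and Clec4g (0.07) lay above 0 and Stab2 (-0.18) below. The bile duct markers summed to 599 to 617 in M8, 397 to 426 in F8 and 580 to 1070 in the younger pools. The B and T lymphocyte markers summed to 300 to 450 over all pools. Their T cell receptor complex genes moved in opposite directions. Cd3g was called lower in M8/F8 (log2 ratio -0.86), M8/M3 (log2 ratio -0.75) and M8/M4 (log2 ratio -0.59), whereas Cd3e was above 0 there (log2 ratios of 0.20, 0.43 and 0.26, with adjusted p-values of 0.0246, 0.00139 and 0.00969 in limma) without reaching the fold threshold. The part of these markers in the ratios of Nat8f5, Nat8 and Nat8f2 was not tested. In pooled tissue, fewer cells of a type and less RNA per cell cannot be told apart.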

How the data were processed

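Liver RNA of CD1 mice was measured on 14 two-color arrays, 2 for each of 7 comparisons. The authors deposited the Feature Extraction output, with spot intensities and the log10 ratio of red over green after background subtraction and dye normalization. The series table held the same log10 values, with a largest difference of 0. Each value was put on the log2 scale with the male or the older group as numerator, spots of a probe were averaged, and 39429 probes remained. Signals of pools came from the deposited processed intensity after Aquantile normalization. The fit (R 4.3.3, limma 3.58.1) had 7 comparisons and 1 dye term per probe with 6 residual degrees of freedom. Adjusted p-values (Benjamini-Hochberg) ran over all probes and comparisons together, and within each interaction. The Rosetta software of the study was not run here. An error-weighted average of both arrays stood in for it as 1 of 26 alternatives.

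The fit was tested on simulated data, in which noise was drawn separately for each array. That simulation held no shared pools, so it cannot show how the fit behaves with them. The series' design text gives 2 pools for each of the 6 groups and says that they served in all 7 sets of hybridizations. The sample labels do not say which pool lay on which array, so that a replicate number marks the same pool in each comparison was taken from these numbers and from the additive loops in the report. The arrays lay on 4 slides scanned on 2 days, so slide was tried as a block. Pools are separate groups of mice, and each pool was used in several comparisons. The fit pooled the variance of a probe over all 7 comparisons, so a p-value does not measure the spread of a comparison's own 2 pools. For Nat8 the SE was 0.39 in both M3/F3 (SD 1.04) and F8/F3 (SD 0.03). Pool variance was 4.17 times array variance, so arrays that share a pool are not independent. The main fit treated them as independent, and shared pools entered the covariance only in an alternative. The members and the gene lists were chosen with earlier results of these data known. Every member was named, and of each list up to 8 called genes with the largest ratio. Promoter windows came from RefSeq, aligned with Biopython 1.88. Protein sequences were not used here.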

Additional observations from a re-analysis of the deposited data

Results flagged for a closer look

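The change of Nat8 from 3 to 8 wk differed between the sexes. M8/M3 minus F8/F3 was 3.23 on the log2 scale (SE 0.55, adjusted p = 0.0269, limma), with 2.69 in males and -0.54 in females. Both male arrays lay above 0 and both female arrays below it. The call was lost without any one of the 8 arrays of M8/M3, F8/F3, M4/F4 and F8/F4, with values of 3.07 to 3.38 and an adjusted p of up to 0.139.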

How the results depend on the processing

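The 54 ratios and differences of the 6 members were recomputed under 26 alternatives, which gave 1392 values. Of these, 1343 kept their direction and call or stayed within 1 SD, 16 lost a call, 4 gained one, 15 untested values moved by more than 1 SD and 14 tested values changed sign. The SD was that of the 2 replicates. For Nat8f5 the male minus female change from 3 to 8 wk was 4.05 and 4.02 in them. Moves smaller than its SE of 0.46 were therefore counted there. Many of the values could hardly change. Leaving out 1 of the 14 arrays hardly moves the ratios of other comparisons, and no member was near background. Nat8f5 in M4/F4 stayed called throughout (log2 2.18 to 2.51, adjusted p 0.000109 to 0.0332). With the replicate block it was 2.51 (adjusted p = 0.00647), and the block, like the slide as a fixed or random block, changed no other call of a member. Members called in M3/F3 or M4/F4 numbered 2 with 6 group means and with the error-weighted average, where Nat8 in M4/F4 was added (adjusted p = 0.041 with 6 group means). Members that met the rule in the interaction from 4 to 8 wk numbered 1 with normexp and loess (Nat8f5), 2 with 6 group means (Nat8f5 and Nat8, for Nat8 with an adjusted p of 0.00488) and 1 with the error-weighted average (Nat8f5), against 0. Nat8f5 is counted there as a description only, since it was chosen on the 8 wk pools. The error-weighted average also called Nat8f3 in M8/M4 (-0.93) and did not call Nat8 there (1.73). Without a fold threshold, 14 other N-acyltransferase genes were called, against 6. The cause of these shifts was not tested, apart from the last, where the threshold itself was removed.

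With single arrays left out, members that met the rule in the interaction from 3 to 8 wk ranged from 0 to 2, Nat8f5 again included as a description. Each of these sign changes came from leaving out an array and concerned a value that did not pass the test. In M3/F3 the ranges were -0.92 to 0.55 for Nat8, -0.31 to 0.02 for Nat8f1, -0.58 to 0.38 for Nat8f2, -0.62 to 0.96 for Nat8f3 and -0.07 to 0.17 for Nat8f4. Nat8f1 ranged from -0.28 to 0.13 in M4/F4, Nat8f3 from -0.21 to 1.16 in F8/F3 and from -0.02 to 0.22 in F8/F4, and Nat8f4 from -0.07 to 0.03 in M8/M3. The interaction from 4 to 8 wk ranged from -0.30 to 0.05 for Nat8f1, -0.22 to 0.17 for Nat8f2 and -0.10 to 0.06 for Nat8f4. The untested Nat8f5 values ranged from 1.82 to 3.15 in M8/M4, from -0.19 to 0.72 in F8/F4, and from 3.69 to 4.38 and 1.55 to 2.89 for the differences between the sexes from 3 and from 4 to 8 wk. With the processed signals as deposited, M8 stayed the highest group for Nat8f5, Nat8 and Nat8f2. The number of arrays limits the precision, and 2 of the 8 members had no probe.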
